A study of Mus musculus with 7 samples.

Results

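The T cell receptor gene segments were the 270 genes, of 32286 in the deposited annotation, whose gene type begins with TR_. They are the V, D, J and C segments of the antigen receptors of T cells, and 44 of them were typed as pseudogenes. The annotation belongs to a droplet single-cell RNA sequencing study (10x 3' v3 chemistry) of stromal cells sorted from the intestine of mice of the C57Bl6 background, 8 to 12 weeks of age. All 7 samples held GFP-positive cells of Rspo3-GFP transgenic mice, and the design text adds that the cells lacked Epcam and CD45. The samples were 2 of untreated small intestine, 2 of small intestine of unirradiated control mice, 2 of small intestine of mice given 12 Gy and 1 of untreated colon. The cells are marked by a reporter for Rspo3, which encodes a secreted enhancer of Wnt signalling. CD45 is carried by T cells, among other blood cells. No expression values were analysed here, so nothing below is a level in any sample, and every number describes gene models on the mouse build GRCm38.

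A T cell receptor chain is not encoded in 1 piece. In developing T cells the RAG1 and RAG2 recombinase joins a V (variable) segment to a J (joining) segment, with a D (diversity) segment between them in the beta and delta chains, and splicing then joins the assembled exon to a C (constant) segment. Alpha pairs with beta, and gamma with delta. The J segment carries a conserved phenylalanine and glycine motif, the V segment ends shortly after a conserved cysteine, and the bases between these marks form the part of the chain that contacts antigen most directly.

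The D segments are shown first because they are the shortest members and are few enough to be compared letter by letter. Letters run 5′ to 3′ as transcribed and come from GENCODE M21, whose transcripts lie on GRCm38 too. Runs of 3 or more G are in capitals.
Trbd1 (chr6:41533201-41533212, plus strand): GGGacaGGGGGc
Trbd2 (chr6:41542163-41542176, plus strand): GGGactGGGGGGGc
Trdd1 (chr14:54113468-54113478, plus strand): atggcatatca
Trdd2 (chr14:54122226-54122241, plus strand): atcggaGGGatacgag
Trbd1 was 12 bases long and Trbd2 14, and both held 2 runs of G. Trdd1 was 11 bases long with no such run and Trdd2 16 bases long with 1.

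The J segments below show how the joining motif differs between loci. GGNNNNGG, which when read in frame holds a glycine codon, any codon and the start of a further glycine codon, is in capitals where present. Otherwise a phenylalanine codon TTT followed by GC, any 4 bases and GG is in capitals, where the first glycine codon is replaced by one that starts with GC. Traj18 and Traj33 are the partners of Trav11 and Trav1 in the semi-invariant receptors of natural killer T cells and mucosal-associated invariant T cells, respectively.
Traj18 (chr14:54200777-54200842, plus strand): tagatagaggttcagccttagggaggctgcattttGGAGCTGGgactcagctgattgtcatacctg
Traj33 (chr14:54185358-54185414, plus strand): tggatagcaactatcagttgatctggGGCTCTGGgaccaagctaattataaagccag
Trdj1 (chr14:54123138-54123188, plus strand): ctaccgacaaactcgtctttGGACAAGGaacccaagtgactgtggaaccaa
Trdj2 (chr14:54136779-54136837, plus strand): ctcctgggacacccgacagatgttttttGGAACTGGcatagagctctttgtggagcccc
Trbj1-1 (chr6:41533864-41533911, plus strand): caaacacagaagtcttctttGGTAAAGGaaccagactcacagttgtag
Trbj1-6 (chr6:41535554-41535606, plus strand): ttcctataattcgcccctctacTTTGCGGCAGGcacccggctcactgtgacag
Trbj2-7 (chr6:41543810-41543856, plus strand): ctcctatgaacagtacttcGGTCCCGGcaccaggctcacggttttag
Trgj1 (chr13:19210343-19210402, plus strand): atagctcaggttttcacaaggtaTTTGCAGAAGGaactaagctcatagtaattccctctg
Trgj2 (chr13:19311245-19311304, minus strand): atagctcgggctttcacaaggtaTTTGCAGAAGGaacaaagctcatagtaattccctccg
Trgj3 (chr13:19257117-19257176, plus strand): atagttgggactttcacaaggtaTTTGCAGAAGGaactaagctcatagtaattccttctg
Trgj4 (chr13:19342152-19342212, plus strand): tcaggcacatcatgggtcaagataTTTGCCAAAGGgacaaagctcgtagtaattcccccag
Traj20 (chr14:54199441-54199498, plus strand): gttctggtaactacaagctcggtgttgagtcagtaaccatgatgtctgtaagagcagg
Traj1 (chr14:54218814-54218842, plus strand): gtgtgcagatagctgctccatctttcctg
Traj20 and the pseudogene Traj1 hold neither form, and nothing is capitalised in them.

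GGNNNNGG was found in the sense strand of 62 of 80 J segments (77.5%, 95% Wilson interval 67.2 to 85.3). It was present in 48 of 60 alpha, 12 of 14 beta, 2 of 2 delta and 0 of 4 gamma J segments. Among the middle 60 bases of the coding sequences of 21376 protein-coding genes, 22.7% held the same letters, a share to be read beside those counts. With the letters TTN of a phenylalanine or leucine codon required just before it, the motif was in 0.894% of those windows and in 59 of 80 J segments (73.8%). GGNNNNGG stood in 3 of 10 J pseudogenes and in 59 of 70 J genes. The start of the motif lay 31 bases before the end of the segment in 32 J segments, 28 bases before it in 11 and 30 bases before it in 9. In the rest it lay at other distances, from 16 to 34 bases. The search took no account of the reading frame, and these distances are not all in the same phase. All 4 gamma J segments instead carried the form TTT, GC, any 4 bases and GG, a form that was looked for after the gamma sequences had been seen and that 0.318% of the coding windows hold. Trbj1-6 and Traj59 were the other 2 J segments with it. The 5 J genes with neither form were Traj41, Traj29, Traj20, Traj19 and Traj3. Trgj1, Trgj2 and Trgj3 were near copies of 60 bases: positions counted from 1 at the 5′ end, Trgj1 and Trgj2 differed by A8G, T11C, T38A and T59C, with the base of Trgj1 first, and Trgj1 and Trgj3 at 6 positions. Trgj4, of 61 bases, differed from Trgj1 by 19 edits.

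The ends of V segments are shown for the same reason, with TANNNNTG and the base that follows it in capitals. In the V genes shown with capitals these letters hold a tyrosine codon, any codon and the codon of the conserved cysteine.
Trav1 (chr14:52428817-52428876, plus strand): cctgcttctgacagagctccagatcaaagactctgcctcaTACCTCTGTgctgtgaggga
Trav11 (chr14:53519800-53519859, plus strand): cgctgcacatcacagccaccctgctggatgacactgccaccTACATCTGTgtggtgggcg
Trdv5 (chr14:54148662-54148721, minus strand): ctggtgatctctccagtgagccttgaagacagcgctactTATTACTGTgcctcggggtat
Trbv13-2 (chr6:41121773-41121832, plus strand): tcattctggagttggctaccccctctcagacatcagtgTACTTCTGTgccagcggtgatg
Trbv31 (chr6:41557693-41557752, minus strand): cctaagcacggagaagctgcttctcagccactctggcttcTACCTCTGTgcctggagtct
Tcrg-V5 (chr13:19192666-19192725, plus strand): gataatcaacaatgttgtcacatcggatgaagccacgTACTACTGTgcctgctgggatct
Trbv1 (chr6:40891826-40891885, plus strand): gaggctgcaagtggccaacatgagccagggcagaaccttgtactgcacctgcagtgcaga
Trbv19 (chr6:41178989-41179048, plus strand): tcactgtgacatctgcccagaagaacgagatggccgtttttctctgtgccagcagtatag
TANNNNTG stood in the last 40 bases of 142 of 144 V genes (98.6%, 95.1 to 99.6), and of 25 of 34 V pseudogenes (73.5%, 56.9 to 85.4). Middle windows of 40 coding bases of protein-coding genes held it in 9.53%. The motif was chosen after some V ends had been seen. The 2 V genes without it were Trbv1 and Trbv19, both of the beta locus, whose ends are the last in the set above.

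The members formed 3 compact loci, drawn in the map of segments by distance. By symbol, 189 belonged to alpha, 11 to delta, 53 to beta and 15 to gamma, and 2 V genes, C920008G01Rik and B230359F08Rik, carry no receptor symbol. Both of the latter lie among the alpha V segments, so by position the alpha/delta locus held 202 members. All 270 symbols were unique to 1 gene identifier. In the gamma locus 10 symbols follow the Tcrg form and 5 the Trg form.

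**Figure D1:**
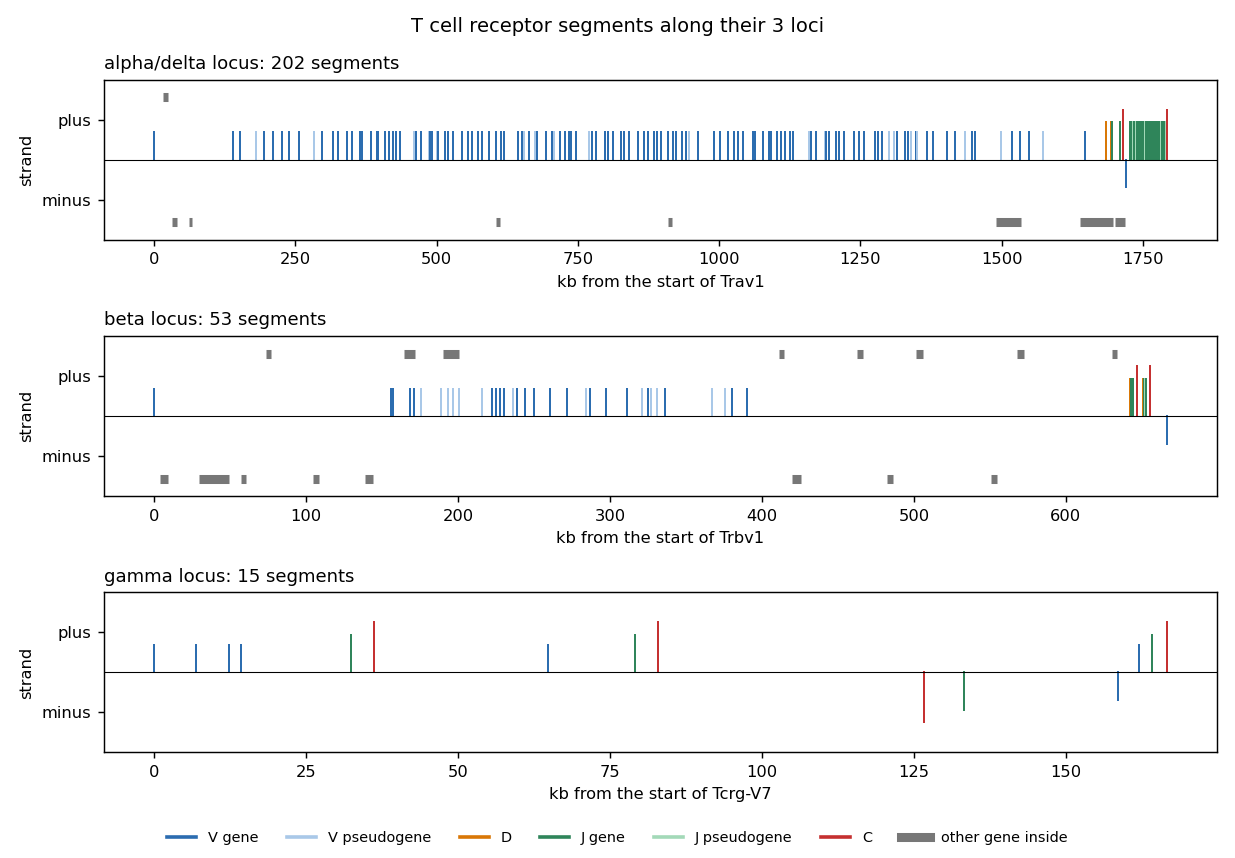
Each vertical line is 1 T cell receptor segment at its distance in kb from the first member of its locus, coloured by class and drawn up for the plus and down for the minus strand, with line length set by class only; grey bars are other genes wholly inside the locus. The 135 plus-strand alpha and delta V segments precede the packed J segments, beta V segments are split by blocks of other genes, and gamma repeats short V, J and C groups.

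The alpha/delta locus ran over 1796 kb of chromosome 14 (chr14:52427928-54224206) from Trav1 to Trac, on the plus strand but for 1 member. By position it held 115 V genes, 21 V pseudogenes, 2 D, 53 J genes, 9 J pseudogenes and 2 C segments. The 135 plus-strand V segments came first, over 1648 kb. Trdd1, Trdd2, Trdj1, Trdj2 and Trdc followed within 35.4 kb, and the 60 alpha J segments and Trac came last, so that the D, J and C segments of delta lay wholly between the V and the J segments of alpha. The only member on the minus strand was Trdv5, a delta V gene whose last 207 bases lay over the end of Trdc in the opposite direction. As background, joining an alpha V to an alpha J segment on the same strand removes what lies between them. Of the V genes with an alpha symbol, 10 also carry a delta number, such as Trav6-7-dv9 and Trav21-dv12, since they are used in both chains. The alpha J segments numbered from Traj61 to Traj1, with 60 members and no member numbered 10, over 63.8 kb. Trac began 1678 bases after Traj1. Dad1, the neighbour downstream, is on the minus strand, with its 3′ end 11272 bases beyond Trac.

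The beta locus spanned 667 kb of chromosome 6 (chr6:40891229-41558452) from Trbv1 to Trbv31, with 22 V genes, 13 V pseudogenes, 2 D, 13 J genes, 1 J pseudogene and 2 C segments. It held 34 plus-strand V segments, then 2 clusters of 1 D, 7 J and 1 C segment each, within 15.2 kb. Trbd1 was 651 bases upstream of Trbj1-1 and Trbd2 577 bases upstream of Trbj2-1. Trbv31 lay 9338 bases downstream of Trbc2 on the minus strand; as background, this segment is known to join by inversion. The 7 J segments of the first cluster took 1824 bases and those of the second 1103.

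The gamma locus was the smallest, at 175 kb of chromosome 13 (chr13:19178024-19352756) from Tcrg-V7 to Tcrg-C4, with 7 V, 4 J and 4 C genes and 0 pseudogenes. Each C segment came with its own J segment, at a distance of 3700 bases for Trgj1 and Tcrg-C1, 3707 for Trgj3 and Tcrg-C3, 3693 for Trgj2 and Tcrg-C2, and a shorter 2345 for Trgj4 and Tcrg-C4. Tcrg-V7, Tcrg-V4, Tcrg-V6 and Tcrg-V5 stood together over 14.7 kb, 17.6 kb upstream of Trgj1. The group of Tcrg-C2, Trgj2 and Trgv2 was on the minus strand, in the reverse order. Of all 270 members these 3, Trdv5 and Trbv31 were the 5 on the minus strand.

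V segments were widely spaced and J segments closely. Among V segments with an alpha or delta symbol the median distance from the end of 1 to the start of the next was 9008 bases, against 5436 in the beta and 5665 in the gamma locus. Those medians come from 133, 34 and 6 gaps. Without pseudogenes they were 10333.5 bases in the alpha/delta and 10081 in the beta locus, so that these loci were then close to each other. The widest gap in the alpha/delta locus was 138 kb, between Trav1 and Trav2, and the smallest was 1026 bases, between Trav3-4 and Trav12-4. The widest gap in the beta locus, 276 kb, lay between Trbv30 and Trbv31 and held both D, J and C clusters, and 155 kb separated Trbv1 from Trbv2. In the gamma locus the widest gap was 93.3 kb, from Tcrg-V3 to Trgv2. J segments were a median of 912 bases apart in the alpha/delta locus and 164 bases in the beta locus, and 46714 bases in the gamma locus, where each belongs to its own group.

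Other genes lay inside the loci. The beta locus held 17, of which 14 were protein-coding. Of these, 8 stood between Trbv30 and Trbd1, among them Try4, Try5, Try10, Prss3, Prss1 and Prss2, which encode trypsinogens, the precursors of the pancreatic protease trypsin. The other 6, Prss58 among them, were between Trbv1 and Trbv2, as was the long non-coding RNA Gm29588. The alpha/delta locus held 8: the olfactory receptor genes Olfr1509, Olfr1508 and Olfr1507 between Trav1 and Trav2, and 5 long non-coding RNAs on the minus strand. The gamma locus held 0 wholly inside, and Gm31887, a minus-strand long non-coding RNA, reached into it. The genes of the partner chains and of recombination (Cd3d, Cd3e, Cd3g, Cd247, Ptcra, Rag1, Rag2 and Dntt) were on other chromosomes, 0 of 8 on a chromosome of the loci. Cd3g, Cd3d and Cd3e lay together within 40.1 kb of chromosome 9, and Rag2 and Rag1 5752 bases apart on chromosome 2.

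On their own strand, 4 of 270 members shared exon bases with another gene, near the background of 2.55% of all genes of the annotation (823 of 32286). They were Trbv4 and Trbv5, with 295 and 292 bases on exons of the long non-coding RNA 5830405F06Rik, and the pseudogenes Trbv8 and Trbv10, with 285 and 44 bases on exons of Gm49885. On either strand the count was 11, against 24.4% of all genes. Trdc and Trdv5 shared 207 bases in opposite directions. The other 5 were Tcrg-V4, Trav13d-3, Trav13n-3, Trdv2-1 and Trdv2-2, each over a minus-strand long non-coding RNA. Trav13d-3 and its copy Trav13n-3 had all of their exonic bases, 391 and 337, on exons of Gm30214 and Gm43650. Trbv9 and 9 others lay in introns only, so that 21 members shared gene-body bases with another gene on either strand, against 36.8% of all genes. Members are short, with a median gene body of 535 bases in V genes and 60 in J genes. The backgrounds over all genes were not matched for length.

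V genes had the same structure throughout: all 144 had 2 exons in their longest transcript, a leader exon for the signal peptide and a variable exon. Of the 34 V pseudogenes 13 had 2 exons and 21 had 1, of which 10 were in the alpha/delta locus and 11 in the beta locus. The largest of these were Trbv7, of 402 bases, and Trdv3, of 309. Together 157 of 178 V segments (88.2%, 82.6 to 92.2) had 2 exons. In 143 V genes with coding bases in both exons, exon 1 held a median of 49 coding bases (31 in Trbv20 to 112 in Tcrg-V4). Exon 2 held a median of 292 (264 in Trav9d-4 to 312 in Trav14d-1 and other Trav14 segments). In all 143, exon 2 started after the first base of a codon. Trbv21 is the exception, with no coding base in exon 1. The intron was a median of 159 bases, shortest in Trbv3 at 84 and longest in Trav13n-4 at 1408, followed by Trav6-3 at 1279 and Trav6d-3 at 1274. Coding length was a median of 341 bases among V genes with an alpha or delta symbol, 344 in the beta and 350 in the gamma locus.

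By length of the gene body, the longest V segment was Trav13n-4 at 1840 bases and the shortest Trav15-3, a pseudogene, at 155. In the beta locus Trbv31 was longest at 762 and Trbv11 shortest at 260, and in the gamma locus Trgv2 at 595 and Tcrg-V5 at 448. J segments ran from 29 bases in Traj1 to 72 in Traj61, both pseudogenes. J genes ran from 46 in Trbj1-7 to 66 in several, Traj53 and Traj18 among them. J genes had a median of 61 bases in alpha, 49 in beta and 60 in gamma.

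Pseudogenes made up 13 of 35 V segments in the beta locus (37.1%, 23.2 to 53.7), 21 of 134 with an alpha or delta symbol (15.7%, 10.5 to 22.8) and 0 of 7 in the gamma locus, where the interval reaches 35.4%. Over all loci the share was 19.1% (34 of 178). The immunoglobulin V segments of the same annotation, given side by side and with no test, held 42.0% pseudogenes (158 of 376), and 77.8% of the 427 immunoglobulin segments were on the minus strand against 1.85% here. RefSeq gave the same class for 250 of 258 members found there by symbol. It typed as V segments 6 that the deposited annotation calls pseudogenes, Trav9n-1, Trav11n, Trav3n-2, Trav13-3, Trav8-2 and Trbv24, and as pseudogenes 2 that the deposited annotation calls genes, Trav23 and Trbv29. A stop codon in the reading frame of V genes was in the variable exon of 12 of the 13 V pseudogenes with 2 exons, the exception being Trav8-2, and in 2 of 143 V genes, Tcrg-V4 and Trbv4, where it starts at base 303 of 307 and base 291 of 295. The only such stop of the pseudogene Trav9n-1 lies as near the end, at base 288 of 293.

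Many alpha V segments occur in 3 series, marked d, n or by no letter. Of 40 numbers with at least 2 copies, 31 had all 3, in the same order in each. The d copies stood first on the chromosome, over 399 kb, then the n copies, over 284 kb, then the plain copies. The d and n copies of a number were a median of 310.974 kb apart (33 pairs), the n and plain copies 386 kb (32 pairs), and the d and plain copies 696 kb (37 pairs). Variable exons of d and n copies were identical in 18 of 33 pairs and had a median identity of 100%, against 97.1% for n and plain and 97.5% for d and plain.

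**Figure D2:**
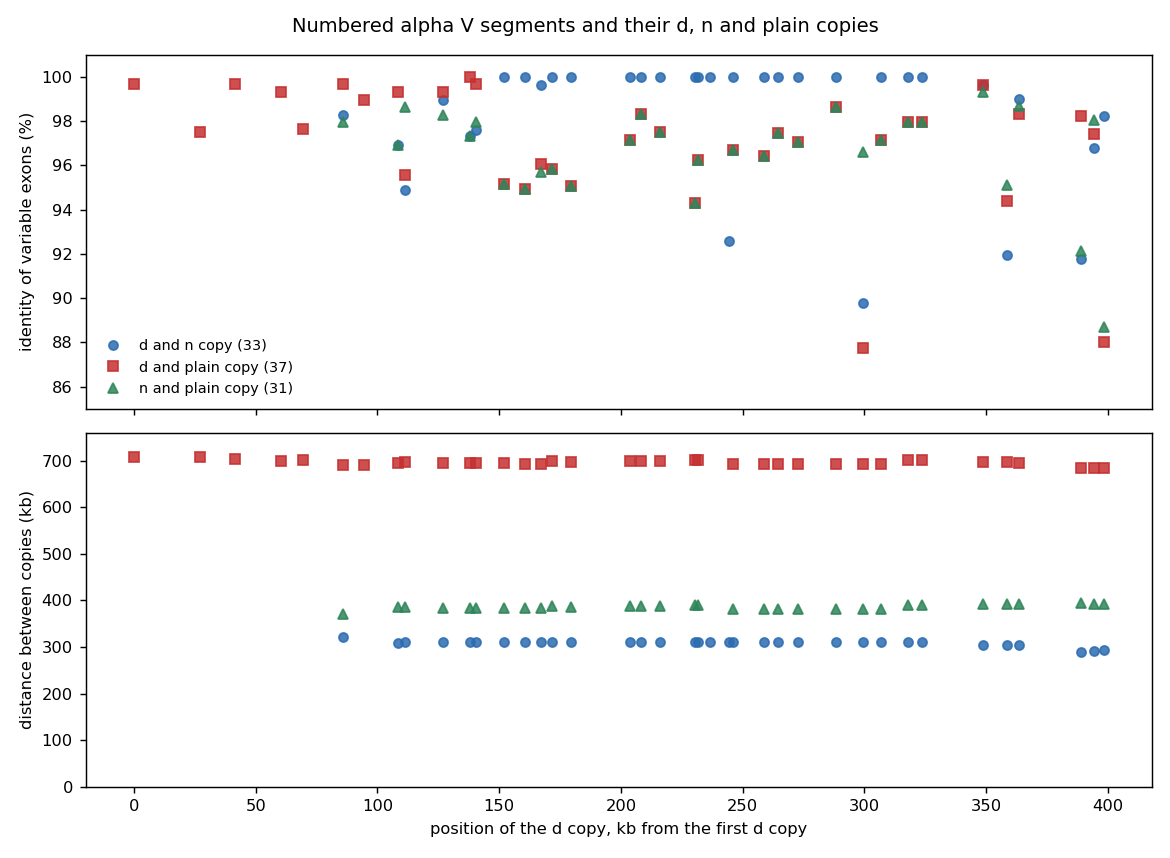
Upper panel: identity of the variable exons, in percent, of the d, n and plain copies of each alpha V number, against the position of its d copy in kb; lower panel: distance between the copies in kb. In the middle stretch the d and n copies (circles) sit at 100% but for 3. At both ends of the block no d and n copy, paired by symbol, is identical, and C920008G01Rik, which has no d symbol, is not drawn.

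The identical pairs were together. Between Trav7d-5 and Trav6d-7, 172 kb chosen after the values were seen, 18 of 21 numbers had identical d and n variable exons and all 21 pairs were 310.936 to 311.191 kb apart, whereas 0 of the 12 numbers outside had identical d and n exons. The exceptions within were Trav13-1 at 1 edit, Trav5-3 at 20 and Trav9-4 at 30. The annotated ends of the Trav5-3 exons are shifted by 10 bases, and over the 260 bases that both exons hold the copies were identical. The d exon of Trav9-4 lacks 1 block of 30 bases inside the exon (264 against 294 bases) and was otherwise identical to the n exon. The spacing was not confined to the stretch. Outside it, the d and n copies of Trav10 were 311.18 kb apart, and 24 of all 33 pairs lay within 500 bases of the median distance. Also outside the stretch, Trav6d-6 was identical to the plain Trav6-6, 695 kb away. Of the 31 numbers with 3 copies, d and n were the nearest pair in 20, d and plain in 6 and n and plain in 4, with a tie in 1. Across all V segments 20 pairs had identical variable exons, and in 17 the whole longest transcripts were identical too. C920008G01Rik, the unnamed V gene, was identical in its variable exon of 288 bases to Trav7n-6, 304 kb away, and stood between Trav6d-7 and Trav13d-3, as Trav7n-6 stands between Trav6n-7 and Trav13n-3. It lies just outside the stretch and carries no d symbol. The count of 0 of 12 outside therefore holds for copies paired by symbol and leaves this pair out. B230359F08Rik, between Trav12-4 and Trav17, was 85.3% identical to its nearest V segment, Trav13n-4.

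The sequences of Trav12d-1, which has the letters of Trav12n-1, and of the plain Trav12-1 show the 15 differences of this number in capitals, and those of C920008G01Rik and Trav7-6 show 9.
Trav12d-1 (chr14:52844747-52845041, plus strand): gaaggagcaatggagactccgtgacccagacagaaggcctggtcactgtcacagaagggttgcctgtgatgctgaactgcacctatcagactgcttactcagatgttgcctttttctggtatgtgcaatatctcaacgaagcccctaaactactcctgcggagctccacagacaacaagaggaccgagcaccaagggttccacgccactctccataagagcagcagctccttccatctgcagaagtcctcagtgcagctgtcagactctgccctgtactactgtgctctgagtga
Trav12-1 (chr14:53538444-53538738, plus strand): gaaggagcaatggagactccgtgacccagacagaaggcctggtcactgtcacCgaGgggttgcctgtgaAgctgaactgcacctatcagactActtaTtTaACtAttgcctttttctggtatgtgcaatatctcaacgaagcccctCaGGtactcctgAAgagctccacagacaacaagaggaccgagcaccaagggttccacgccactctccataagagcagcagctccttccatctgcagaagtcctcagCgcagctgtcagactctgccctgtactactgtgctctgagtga
C920008G01Rik (chr14:53020704-53020991, plus strand): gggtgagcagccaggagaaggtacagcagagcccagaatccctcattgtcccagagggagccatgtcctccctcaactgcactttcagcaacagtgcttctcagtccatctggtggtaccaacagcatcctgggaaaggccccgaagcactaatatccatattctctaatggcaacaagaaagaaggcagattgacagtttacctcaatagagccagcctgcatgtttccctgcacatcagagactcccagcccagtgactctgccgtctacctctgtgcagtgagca
Trav7-6 (chr14:53717004-53717291, plus strand): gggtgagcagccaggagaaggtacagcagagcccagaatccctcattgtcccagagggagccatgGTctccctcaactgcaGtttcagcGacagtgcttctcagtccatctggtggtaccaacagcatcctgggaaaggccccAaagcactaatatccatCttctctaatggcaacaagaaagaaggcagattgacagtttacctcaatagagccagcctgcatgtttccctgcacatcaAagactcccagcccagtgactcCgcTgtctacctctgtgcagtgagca
Among Trav11, Trav11d and Trav11n, the d copy was a V gene whose variable exon had the letters of Trav11 less its last base. The n copy was a pseudogene with 6 substitutions, in capitals in its line below. Counted from the first base of the exon, with the base of Trav11 first, these were T53C, C86G, C149A, G165C, T188C and A214G. C86G lies in the codon that starts at base 84, which in Trav11n reads as a stop.
Trav11 (chr14:53519569-53519859, plus strand): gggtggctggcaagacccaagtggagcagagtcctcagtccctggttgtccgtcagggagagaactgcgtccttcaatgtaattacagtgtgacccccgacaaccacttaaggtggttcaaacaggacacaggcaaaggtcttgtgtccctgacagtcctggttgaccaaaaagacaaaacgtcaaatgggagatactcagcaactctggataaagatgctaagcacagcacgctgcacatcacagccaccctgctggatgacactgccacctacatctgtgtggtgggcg
Trav11n (chr14:53135388-53135678, plus strand): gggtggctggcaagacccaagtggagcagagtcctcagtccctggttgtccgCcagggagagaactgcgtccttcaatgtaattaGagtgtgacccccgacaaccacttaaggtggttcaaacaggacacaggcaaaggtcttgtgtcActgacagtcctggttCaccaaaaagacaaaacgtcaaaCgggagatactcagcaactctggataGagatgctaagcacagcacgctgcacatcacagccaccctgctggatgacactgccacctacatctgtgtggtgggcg
In 4 other numbers copies differed in class in the deposited annotation: Trav4-2 and Trav9-1, where the d or n copy is the pseudogene, and Trav13-3 and Trav8-2, where the plain copy is. The pseudogene Trav13-3 differed from the V gene Trav13d-3 by 1 edit. In RefSeq all copies are V segments in 4 of these 5 numbers, Trav11 included, and the classes differ in Trav4-2 only.

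Relative to the nearest other V segment, the identity of variable exons had a median of 98.5% in the alpha/delta, 65.4% in the beta and 71.7% in the gamma locus. In the alpha/delta locus 108 of 136 had a neighbour of at least 95% identity, in beta 0 of 35 and in gamma 3 of 7. The closest beta pair was Trbv13-2 and Trbv13-3 at 91.8%, and the closest gamma pair Tcrg-V3 and Tcrg-V1 at 96.1%. Trav1 was far from all, at 58.3%, as was Trdv4 at 53.5%.

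**Figure D3:**
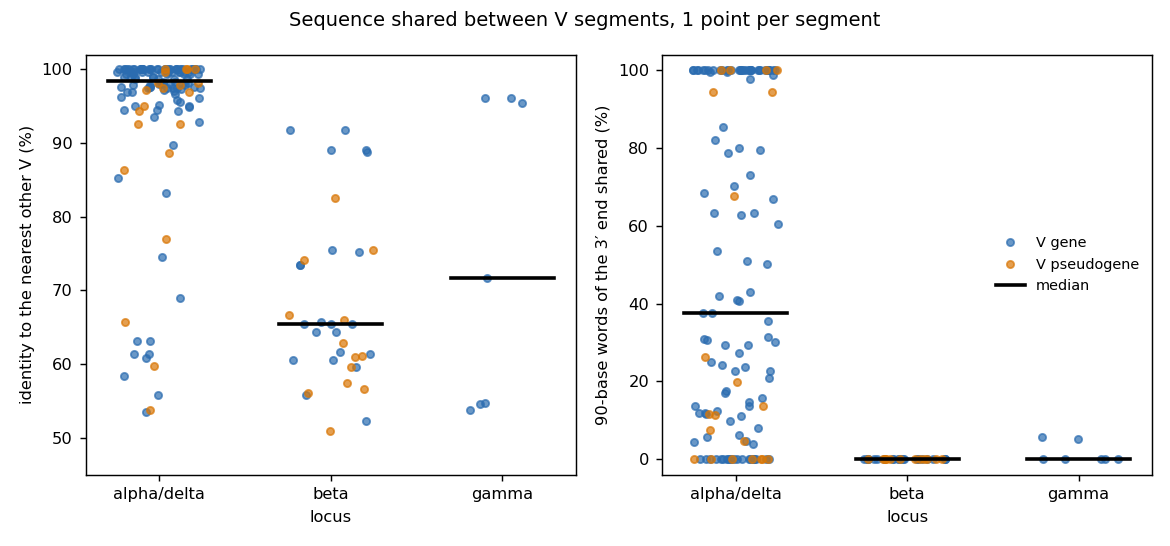
Left: identity in percent of each V segment's last exon to the most similar other V segment. Right: share in percent of the 90-base words of its 3′ end that occur in another gene that does not overlap it. Points are segments, spread sideways only to be seen, and bars are medians: alpha/delta points crowd near 100% on the left and reach 100% on the right, while every beta segment is at 0 on the right.

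Alpha V segments shared much of their 3′ sequence with each other. A read that fits more than 1 gene cannot be given to one of them. In a receptor transcript, however, the V segment lies upstream of the J and C segments, and 3′ libraries read at the C segments described below. The shares here describe sequence and were not tied to read counts. Of the 178 V segments, 63 (35.4%) had 50% or more of the 90-base words in the last 500 exonic bases of the longest transcript in another gene, against 4.48% of protein-coding genes. All 63 were in the alpha/delta locus, 40 of them with every word shared, and 0 of 35 beta and 0 of 7 gamma V segments reached 50%. Among genes that do not overlap them, words were shared with other T cell receptor segments only. Overlapping genes were left out of the search, so same-strand long non-coding RNAs over beta V segments could not count. Exons of these RNAs cover 295 of 393 exonic bases of Trbv4 and 292 of 368 of Trbv5. They also cover 285 of 285 of Trbv8 and 44 of 289 of Trbv10.

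The 8 C segments carry the 3′ ends of receptor transcripts, and 3′ libraries read there. Trbc1 and Trbc2 had 4 exons of 375, 18, 107 and 237 or 192 bases. Trac had 261, 45, 108 and 521 bases and Trdc 279, 66, 117 and 3403, and in both the last exon held no coding base. Tcrg-C1, Tcrg-C2 and Tcrg-C3 had 3 exons and Tcrg-C4 had 4, with a first exon of 330 bases in each. Coding length was 410 bases in Trac, 458 in Trdc, 518 in both beta C segments, and 515, 500, 443 and 569 in Tcrg-C1, Tcrg-C2, Tcrg-C3 and Tcrg-C4. Tcrg-C4 was the longest gene body at 8199 bases and Trbc2 the shortest at 1623.

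**Figure D4:**
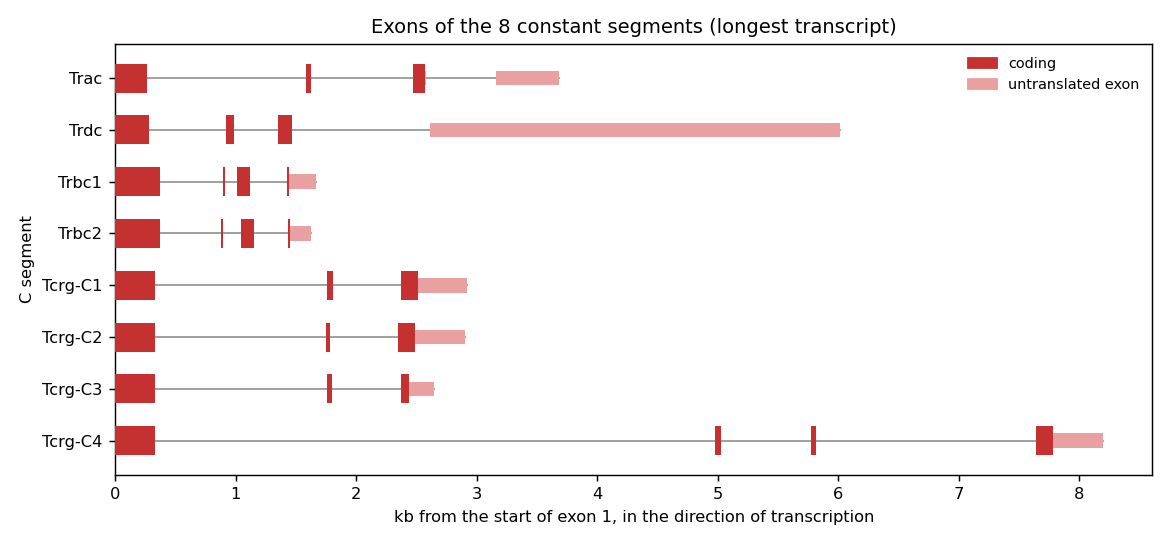
Exons of the longest transcript of the 8 C segments by distance in kb from the start of exon 1, with coding bases dark and untranslated bases, which include the stop codon, light. Trdc ends in an untranslated exon of 3403 bases, and Tcrg-C4 spreads 4 exons over 8199 bases.

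The beta C segments were nearly alike in their first exon and less so after it. Exon 1 of Trbc1 and Trbc2 differed by C260A alone among 375 bases, with the base of Trbc1 first, and the whole coding sequences by 23 of 518 bases. Exon 3, shown with the differing bases of Trbc2 in capitals, held 15 of them.
Trbc1 (chr6:41539229-41539335, plus strand): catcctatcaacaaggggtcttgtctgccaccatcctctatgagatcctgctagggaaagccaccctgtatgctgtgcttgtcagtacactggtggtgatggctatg
Trbc2 (chr6:41547772-41547878, plus strand): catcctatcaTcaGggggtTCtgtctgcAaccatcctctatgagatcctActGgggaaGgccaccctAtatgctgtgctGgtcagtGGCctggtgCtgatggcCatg
The bases after the coding sequence, 219 in Trbc1 and 174 in Trbc2, were 53.9% identical. Of the 411 words of 90 bases in the last 500 bases of Trbc1, 33 occurred in Trbc2. As a scale for such identities, coding sequences of C segments of different chains were 47.6% (Tcrg-C3 and Trac) to 51.7% (Tcrg-C4 and Trdc) identical. A value only slightly above these therefore does not show that sequence is shared. Among the gamma C segments, coding identity was 94.6% between Tcrg-C1 and Tcrg-C2, 83.3% between Tcrg-C1 and Tcrg-C3 and 72.1% between Tcrg-C1 and Tcrg-C4. These values count differences in coding length, 515 bases in Tcrg-C1 against 443 in Tcrg-C3. In exon 1, of equal length in all, the identities to Tcrg-C1 were 97.3% for Tcrg-C2, 96.1% for Tcrg-C3 and 82.1% for Tcrg-C4. After the coding sequence they were 93.5% for Tcrg-C2, 41.3% for Tcrg-C3 and 55.8% for Tcrg-C4. That part holds 409 bases in Tcrg-C1 and only 205 in Tcrg-C3. Tcrg-C1 and Tcrg-C2 are shown by their first 150 coding bases, with differences in capitals in the latter.
Tcrg-C1 (chr13:19214103-19214252, plus strand): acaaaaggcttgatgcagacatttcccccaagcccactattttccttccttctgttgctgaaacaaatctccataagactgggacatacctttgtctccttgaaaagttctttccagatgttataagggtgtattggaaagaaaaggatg
Tcrg-C2 (chr13:19307402-19307551, minus strand): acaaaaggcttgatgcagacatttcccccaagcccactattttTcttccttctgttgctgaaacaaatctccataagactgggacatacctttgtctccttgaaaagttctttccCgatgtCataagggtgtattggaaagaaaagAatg
Of the 411 words, 15 of Tcrg-C1, 21 of Tcrg-C2 and 44 of Tcrg-C3 occurred in another C segment of the locus, and 0 of Tcrg-C4, Trdc and Trac. A word counts only if all 90 bases are the same, so few shared words can go with high identity. The shared part ran from 0 to 10.7% of the words of a C segment.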

How the data were processed

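The deposited file is a gene annotation, and its values are start and end coordinates in bases, with no score; its release is GENCODE M23 (Ensembl 98) on GRCm38, per the file headers, and the authors added 5 EGFP records. Seurat 4.0.3, Cell Ranger 6.0.1 and R 4.1.0 are named in the submitters' processing notes. Expression values were not analysed here, so depth and replicate error do not enter, and no test was run. The members, lists and rules were chosen with earlier results of these data known.

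From the 1780460 records, 1 transcript per gene was used except where stated, the one with the largest sum of exon lengths. Loci were set by symbol prefix, and, where stated, by position. Exon overlaps of at least 1 base were found with bedtools 2.31.1 from the exons of all transcripts of each gene. Sequences came from GENCODE M21 transcripts, where all 330 transcripts of the members had equal version and length and all 270 genes had equal coordinates and type. Identity is 1 minus the edit distance (edlib 1.3.9.post1) over the longer length. Words of 90 bases were searched in the sense strand of all transcripts of all other genes, leaving out overlapping loci. RefSeq classes (GRCm38.p6) were matched by symbol for 258 of 270 members. Shares carry 95% Wilson intervals, which treat segments as independent draws. The annotation was counted in full and many V segments are copies of each other, so the intervals are descriptive only. Functions were tested on simulated data, with overlaps planted in 200 of 2000 made genes. The overlap found, or its absence, was right for 2000 of 2000 genes. The planted words were recovered in 200 of 200 made sequence pairs. Named members are the first and last of each locus, all C and D segments, minus-strand members, members with an exon on another gene's exon, the longest and shortest V and J segments, the neighbours of the widest gaps and the receptor complex and recombination genes; others were named after their values were seen. Python 3.11.15, NumPy 2.4.6, SciPy 1.17.1 and matplotlib 3.10.9 were used.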

Additional observations from a re-analysis of the deposited data

How the results depend on the processing

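No paired analysis was possible because the deposited annotation holds no sample values and no result comes from a test. Placing segments by position and using RefSeq classes for the pseudogene shares were chosen after seeing the data. By position the alpha/delta locus had a median V gap of 9634 bases and a median V coding length of 340 bases. Over V segments that are not pseudogenes, the median gap was 10333.5 bases in the alpha/delta locus and 10081 bases in the beta locus. The difference between those loci thus depends on whether pseudogenes are counted. Start to start, the medians were 9580, 5808.5 and 6166 bases in the alpha/delta, beta and gamma loci. On either strand, 11 members had an exon overlap. The share of V segments with 2 exons was 100% in the alpha/delta and beta loci and over all loci without pseudogenes. Counted over every transcript it was 80.6% in the alpha/delta locus and 78.1% over all loci. Leaving out V models with a coding end not found left 1 V gene, Tcrg-V6, at 403 coding bases in the gamma locus and over all loci, and none in the alpha/delta and beta loci, so those gave no value. Protein-coding genes inside the alpha/delta locus numbered 3, and 1 other gene overlapped the bounds of the gamma locus. The pseudogene shares, the J motif share and the numbers of members by locus stayed within their intervals or within 1.5 times under each alternative tried. In the gamma locus the share by RefSeq class rests on 1 V segment. Counting V segments without a coding record gave the same shares, since 0 of 34 V pseudogenes and all 144 V genes have one. That count is therefore no separate check. The word search covers the last 500 bases of 1 transcript per gene.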
